A study of Mus musculus with 22 samples.

Results

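The experiment described here asks which transcripts change with loss of Ythdc1 in mouse embryonic stem cells (ESCs) that also lack Dux. It comprises 4 of the 22 RNA-seq libraries of the study, chosen by their titles and count-table columns: 2 libraries of Ythdc1-cKO, Dux-KO cells under 4OHT and 2 of the same cells under DMSO. All carry the conditional knockout (cKO) alleles of Ythdc1 and the label Dux-KO, and the labels set the groups apart by the agent alone. 4OHT is a ligand commonly used to switch on an inducible Cre recombinase, and DMSO is its solvent control. The sources used here do not give dose, duration, Cre driver, the exons of Ythdc1 or stretch of Dux deleted, or the number of clones. The cells are male, come from the inner cell mass of blastocysts and grew without feeder cells in serum and LIF. Engineered reporters are mentioned for some of the study's cells without saying in which samples. Matched libraries from Ythdc1-cKO, Dux-Het cells, 2 under 4OHT and 2 under DMSO, served as the comparison for the role of the Dux genotype. Ythdc1-cKO libraries without a Dux label were used as well. They are a set of 8 from 2 ESC lines by their titles, and a further pair, 1 under each agent. Group membership follows the titles, which match the count-table columns; the separate genotype and treatment entries of these samples are offset from the titles by 1 sample. Whether replicates were separate cultures is not said, and p-values thus cover only the spread between these libraries, which may be technical.

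YTHDC1 is a nuclear protein that binds RNA carrying N6-methyladenosine (m6A) and acts in splicing, export and decay of nuclear RNA and in the silencing of retroelements in ESCs. Dux encodes a double-homeodomain transcription factor that switches on genes of the cleavage-stage mouse embryo, among them the Zscan4 cluster and the endogenous retrovirus MERVL with its MT2 promoters. A small share of cultured ESCs enters this state at any time and is called two-cell-like. Ythdc1 loss in Dux-KO cells addresses which transcripts change when this factor is missing.

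Total RNA depleted of ribosomal RNA was sequenced, and counts per gene or repeat family were given as CPM, the count over the library size in M, scaled for composition. Libraries held 49.51 M and 54.14 M counts under 4OHT, against 31.64 M and 47.36 M under DMSO. The DMSO pair differed more than any other pair of the Dux libraries, with a chi-square of replicate counts per degree of freedom of 99.07, against 18.99 for the 4OHT pair and 30.39 and 46.41 for the Dux-Het pairs. Repeat families took 24 and 24.41% of counts under 4OHT, against 16.39 and 20.78% under DMSO, so that DMSO replicate 1 had both the lowest depth and the lowest repeat share of the 4. Defining ESC transcripts were abundant: Pou5f1, which encodes OCT4, stood at 278 and 241 CPM under 4OHT and 505 and 295 CPM under DMSO. Of 13 fibroblast and feeder genes, 10 could be tested. None was higher under 4OHT, and Thy1 was lower (1.53 and 1.77 CPM under 4OHT against 7.69 and 7.37 CPM under DMSO, adjusted p = 0.0241 in edgeR), a call lost without any 1 of the 4 libraries (0.0619 to 0.176). In bulk RNA, fewer cells of a type and less RNA per cell cannot be told apart.

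Ythdc1 itself (chr5:86804221-86836659 on mm10) did not separate the groups. It stood at 54.0 and 56.7 CPM in the libraries labelled 4OHT, against 48.7 and 68.8 CPM under DMSO (log2 fold change -0.09, SE 0.22, edgeR adjusted p = 0.843). The groups overlap. A count over the whole gene does not test the label, because the labels do not say which exons are removed. Dux, listed as Duxf3 (chr10:58229979-58232675), was near the floor of detection in Dux-KO cells. It held 1 and 5 counts under 4OHT, against 2 and 4 counts under DMSO. Dux-Het cells held 68 and 48 counts under 4OHT, against 6 and 3 under DMSO, so both Dux-Het 4OHT libraries lay above all Dux-KO libraries. Under 4OHT the fitted Dux level differed by -4.39 on the log2 scale between Dux-KO and Dux-Het cells (SE 0.67, edgeR adjusted p = 0.019), and in Dux-KO cells 4OHT and DMSO did not separate (adjusted p = 0.817). Dux lies in a repeat array, and the sources used here do not say how reads from near-identical copies were assigned.

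Across 29322 genes and repeat families tested, 2890 (9.86%) passed an edgeR adjusted p of 0.05 in Dux-KO cells. Of these, 1612 (5.5%) were higher under 4OHT and 1278 (4.36%) were lower. At least 2-fold changes made up 1171 of the higher and 523 of the lower entries, and the median log2 fold change over all entries was 0.05. Lists of genes are read below against these shares. Leaving out 1 library moved the count to 423 without 4OHT replicate 1, 453 without 4OHT replicate 2, 779 without DMSO replicate 1 and 2427 without DMSO replicate 2. Groups did not overlap for 59.8% of all entries, so non-overlap alone says little with 2 libraries a group.

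Most two-cell-like genes were at or near 0 in Dux-KO cells under both agents. Of 44 members in the table, 19 had 0 counts in all 4 Dux-KO libraries, 17 reached at most 9 counts in any of them, and 8 reached 10 or more. Among 35 tested members 1 was higher under 4OHT and 0 were lower, beside 5.5% of all entries called higher. Only the 22 tested members with any count in Dux-KO cells could be called there, so the 2 shares are not like for like. Without DMSO replicate 2, 2 members were higher. In Dux-Het cells 25 of the same 35 were higher under 4OHT, against 4.99% of all entries called higher there and 9.34% called in either direction. Members at 0 in Dux-KO cells were tested only because other libraries held counts of them, including Dux-Het libraries under 4OHT. The Dux-Het count and the Dux-Het median below were thus partly fixed by the filter on low counts. The median log2 fold change was -0.04 over the 22 tested members with any count in Dux-KO cells and 2.86 over the 35 in Dux-Het cells, beside 0.05 and 0.04 over all entries. A count of 0 in both groups allows no fold: 3 counts over a group correspond to 0.0284 CPM under 4OHT and 0.0383 CPM under DMSO.

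Zscan4c (chr7:11005745-11010547), a zinc finger gene of telomere maintenance and the hallmark of the two-cell-like state, was at 0 in all 4 Dux-KO libraries. In Dux-Het cells it stood at 21.6 and 20.4 CPM under 4OHT, against 2.07 and 2.67 CPM under DMSO (log2 fold change 3.15, edgeR adjusted p = 0.000195). Zscan4d was likewise at 0 in Dux-KO cells and stood at 17.1 and 13.6 CPM in Dux-Het cells under 4OHT, against 1.81 and 1.98 CPM under DMSO. Zfp352, a zinc finger gene of early cleavage, was at 0 in Dux-KO cells. In Dux-Het cells it stood at 0.912 and 0.578 CPM under 4OHT, against 0.0471 and 0.023 CPM under DMSO. A contrast of the 4OHT libraries alone, added after these values were seen, placed Zscan4c at least 740-fold lower in Dux-KO than in Dux-Het cells, Zscan4d at least 539-fold and Zfp352 at least 26.2-fold lower. The edgeR adjusted p-values were 1.86e-05, 2.02e-05 and 0.0424, with SEs of the fitted log2 contrast of 0.53, 0.56 and 1.26. That contrast called 80 entries lower in Dux-KO cells (0.273% of 29322), of which 21 were among the 35 two-cell-like genes. Members at 0 in Dux-KO cells were tested only because other libraries held counts of them. For these the contrast could only come out lower, so the 21 describe the list and do not test it. The Zscan4 and Usp17l genes are near-identical copies, so the split of reads among them is uncertain. The sequence upstream of Zscan4c is shown because this gene marks the two-cell-like state and was at 0 in Dux-KO cells. The chr7:11005495-11005744 (+) stretch ends at the base before the RefSeq start on GRCm38.p6, and capitals mark CCAAT, searched on both strands. CCAAT was in 17 of 25 two-cell-like genes with a RefSeq promoter (68%) and in 37.5% of 27025 genes. Near-identical copies count as separate genes here, so the 25 may not be independent.
Zscan4c: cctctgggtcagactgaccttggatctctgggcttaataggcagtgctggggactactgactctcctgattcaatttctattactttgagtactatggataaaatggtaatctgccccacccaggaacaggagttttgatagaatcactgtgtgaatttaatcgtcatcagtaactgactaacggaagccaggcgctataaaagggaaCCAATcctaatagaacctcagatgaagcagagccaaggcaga

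The 8 members with 10 or more counts in a Dux-KO library were Zfp750, Nelfa, Usp26, Arg2, Sp110, Pramel6, Pramel7 and Obox6, named here for their counts. Nelfa, a maternal pausing factor subunit, was the most abundant, at 35.6 and 38.3 CPM under 4OHT and 50.7 and 46.1 CPM under DMSO (log2 fold change -0.39, SE 0.15, edgeR adjusted p = 0.137). Arg2, an arginase, stood at 0.916 and 0.921 CPM under 4OHT and 0.169 and 0.655 CPM under DMSO (log2 fold change 1.06, adjusted p = 0.196). In Dux-Het cells Arg2 stood at 3.1 and 2.1 CPM under 4OHT, against 0.542 and 0.484 CPM under DMSO (log2 fold change 2.33, adjusted p = 0.0127). Sp110, a nuclear body gene, stood at 1.75 and 1.41 CPM under 4OHT and 1.35 and 1.25 CPM under DMSO in Dux-KO cells (log2 fold change 0.28, SE 0.38, adjusted p = 0.687). In Dux-Het cells Sp110 stood at 5.36 and 3.39 CPM under 4OHT, against 1.25 and 0.599 CPM under DMSO (log2 fold change 2.24, adjusted p = 0.00543). Its Dux-KO effect minus that of the study's 8-library Ythdc1-cKO set (log2 fold change 2.74) was -2.49 on the log2 scale (SE 0.36, adjusted p = 0.000716) in a fit added after the values were seen. Usp26, Pramel6, Pramel7 and Obox6 had negative log2 fold changes in both genotypes, and none was called in either.

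The called member was Zfp750, a zinc finger gene of epithelial differentiation. It stood at 21.2 and 25.9 CPM under 4OHT and at 6.37 and 6.19 CPM under DMSO in Dux-KO cells. It rose 3.75-fold there (log2 fold change 1.91, SE 0.26, edgeR adjusted p = 0.0015) and kept its call without any 1 of the 4 libraries. In Dux-Het cells it stood at 23.9 and 15.2 CPM under 4OHT and 6.38 and 4.49 CPM under DMSO (log2 fold change 1.84). The rise of Zfp750 differed between the genotypes by 0.06 on the log2 scale (SE 0.35, edgeR adjusted p = 1).

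MERVL-int, the internal part of the retrovirus MERVL, stood at 332 and 327 CPM under 4OHT, against 235 and 291 CPM under DMSO in Dux-KO cells. The groups do not overlap, but the log2 fold change of 0.32 (SE 0.16) did not pass the test (edgeR adjusted p = 0.217). In Dux-Het cells MERVL-int stood at 1059 and 862 CPM under 4OHT, against 312 and 346 CPM under DMSO (log2 fold change 1.54, adjusted p = 0.000328). The Dux-KO effect was smaller than the Dux-Het effect by 1.22 on the log2 scale (SE 0.22, unadjusted p = 0.000183). After adjustment over all 29322 entries edgeR called none (adjusted p = 1), while DESeq2 gave an adjusted p of 0.00936 for MERVL-int. MT2_Mm, its promoter LTR, stood at 158 and 149 CPM under 4OHT, against 116 and 140 CPM under DMSO in Dux-KO cells (log2 fold change 0.26, SE 0.15, adjusted p = 0.289). In Dux-Het cells MT2_Mm stood at 293 and 274 CPM under 4OHT, against 146 and 169 CPM under DMSO (log2 fold change 0.84). Unlike the Zscan4 genes, both entries kept a level well above 0 in Dux-KO cells.

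**Figure D1:**
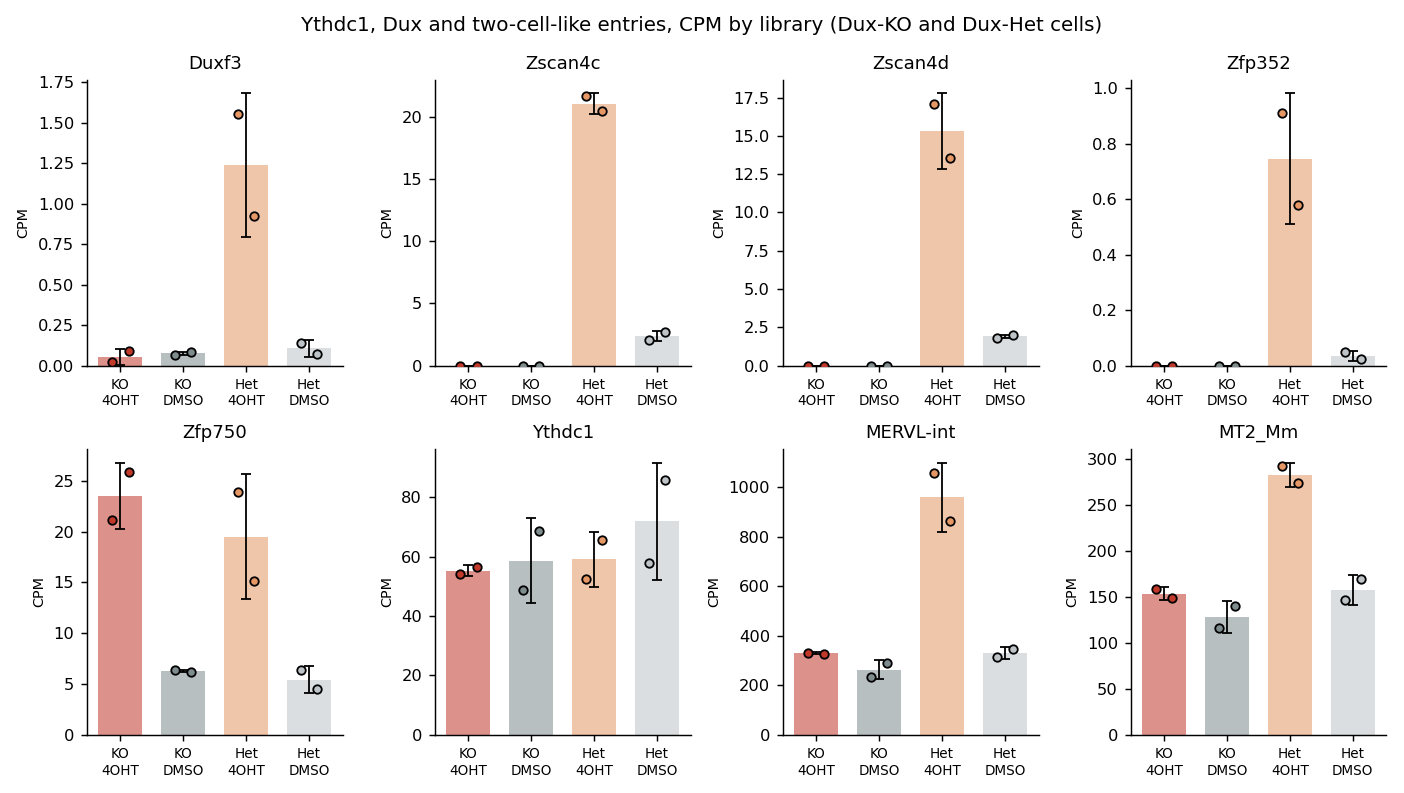
CPM (linear axes from 0) of Dux (Duxf3), Zscan4c, Zscan4d, Zfp352, Zfp750, Ythdc1, MERVL-int and MT2_Mm in Dux-KO and Dux-Het cells under 4OHT and DMSO; points are libraries, bars means and whiskers SD (n = 2 each). Zscan4c, Zscan4d and Zfp352 are at 0 in all 4 Dux-KO libraries, whereas Zfp750 is higher under 4OHT in both genotypes and Ythdc1 overlaps between treatments.

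Of 20 known activators and repressors of the Dux locus, 1 was higher and 3 were lower under 4OHT, beside 5.5% and 4.36% of all entries. Dppa2, an activator of Dux, stood at 35.7 and 39.2 CPM under 4OHT, against 17.1 and 23.6 CPM under DMSO (log2 fold change 0.88, SE 0.21, edgeR adjusted p = 0.0277). Ehmt2, which encodes the histone H3K9 methyltransferase G9a, fell to 41.6 and 41.7 CPM under 4OHT, against 124 and 91.4 CPM under DMSO (log2 fold change -1.37, SE 0.17, adjusted p = 0.000961). Chaf1b, a subunit of the chromatin assembly factor CAF-1, and Trim28, the corepressor KAP1, fell by 0.90 and 0.70 on the log2 scale. Ehmt2 kept its call without any 1 library. Chaf1b, Trim28 and Dppa2 lost theirs without 4OHT replicate 1 (adjusted p = 0.0826, 0.148 and 0.146) or 4OHT replicate 2 (0.109, 0.227 and 0.197), and Trim28 and Dppa2 also without DMSO replicate 1 (0.133 and 0.207).

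Outside the Dux targets, most calls in Dux-KO cells were shared with Dux-Het cells. Of the 1612 entries higher under 4OHT in Dux-KO cells, 974 were also higher in Dux-Het cells, which is 60.4% of the Dux-KO list and 66.5% of the Dux-Het list. Of the 1278 lower entries, 898 were also lower, 70.3% and 70.5% of the lists, and 0 entries were called in opposite directions. A test of the difference between the genotypes' effects called 0 of 29322 entries in edgeR. At an unadjusted p under 0.05 there were 481, fewer than entries without any difference would give on average. DESeq2 called 2, MERVL-int and the predicted gene Gm8994. For the 100 entries at 0 in all Dux-KO libraries that test is undefined, which is why the 4OHT libraries were contrasted directly above. The study's 8-library Ythdc1-cKO set without a Dux label, from 2 ESC lines by its titles, called 45.1% of 24385 entries. There 1320 of the higher entries were also higher (81.9% of the Dux-KO list, 22.8% of that set's) and 1076 of the lower ones also lower (84.2% and 20.6%), while 9 of the higher entries were lower there and 11 of the lower ones higher.

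**Figure D2:**
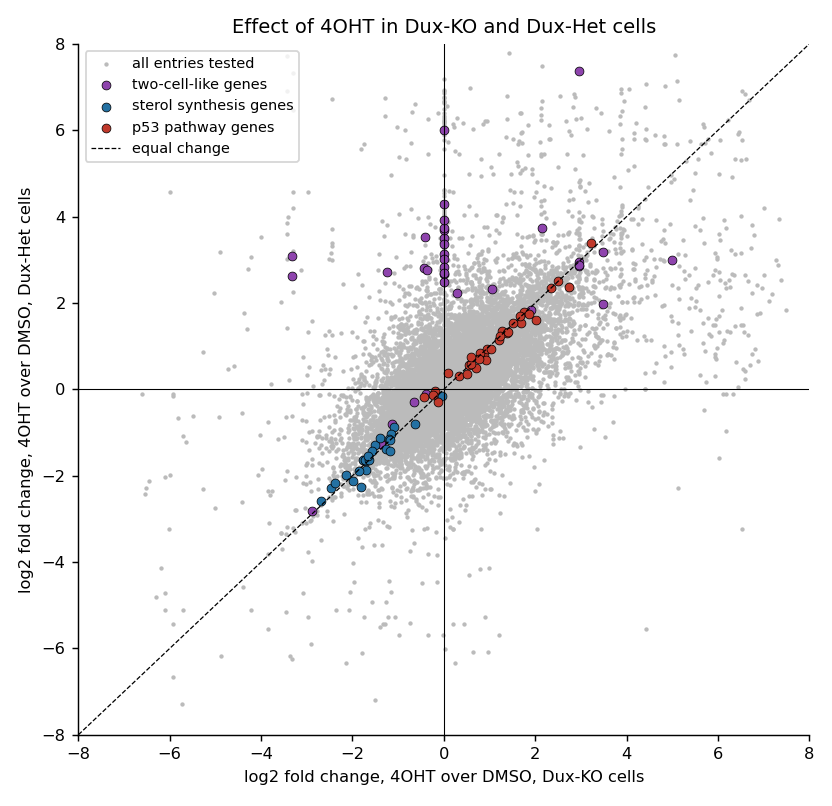
Log2 fold change, 4OHT over DMSO, in Dux-KO cells (x axis) against Dux-Het cells (y axis) for 29322 entries, of which 5 lie outside the plotted range of 8; the dashed line marks equal change. Sterol synthesis and p53 pathway genes lie along the line, while two-cell-like genes with no counts in Dux-KO cells lie at 0 on the x axis and above 2 on the y axis.

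Most p53 pathway genes rose. p53 is a transcription factor held low by the ubiquitin ligase MDM2 and freed by DNA damage and other stress, and its targets arrest the cell cycle or start apoptosis. Of 33 regulators and direct targets, 26 were higher under 4OHT and 0 were lower, against 5.5% and 4.36% of all entries, with a median log2 fold change of 0.95 against 0.05. In Dux-Het cells 23 were higher, with a median of 0.94. Trp53 itself stood at 194 and 224 CPM under 4OHT and 254 and 201 CPM under DMSO (log2 fold change -0.12, SE 0.17, edgeR adjusted p = 0.687). Without 1 library the count of higher members was 11 (without 4OHT replicate 1), 12 (without 4OHT replicate 2), 16 (without DMSO replicate 1) or 19 (without DMSO replicate 2).

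Mdm2 (chr10:117688875-117710758), both a target and the main inhibitor of p53, stood at 426 and 375 CPM under 4OHT, against 58.0 and 62.4 CPM under DMSO. That is a 6.65-fold rise (log2 fold change 2.73, SE 0.18, edgeR adjusted p = 2.6e-05). Cdkn1a, the cell cycle inhibitor p21, stood at 119.8 and 127 CPM under 4OHT, against 39.7 and 33.6 CPM under DMSO (log2 fold change 1.75, SE 0.15, adjusted p = 7.68e-05). Plk2, a kinase, stood at 110.5 and 92.8 CPM under 4OHT, against 20.7 and 19.4 CPM under DMSO (log2 fold change 2.34). Perp, an effector of apoptosis in the plasma membrane, rose by 2.49 and Fas, the death receptor, by 3.23 on the log2 scale. These 5 genes kept their calls without any 1 of the 4 libraries. Their Dux-Het log2 fold changes were 2.36 for Mdm2, 1.78 for Cdkn1a, 2.35 for Plk2, 2.5 for Perp and 3.40 for Fas. The sequence upstream of Mdm2 is shown because Mdm2 was the most abundant of the 5 under 4OHT. On the minus strand at chr10:117710759-117711008, the stretch next to the RefSeq start held 1 match to the p53 half-site consensus, in capitals.
Mdm2: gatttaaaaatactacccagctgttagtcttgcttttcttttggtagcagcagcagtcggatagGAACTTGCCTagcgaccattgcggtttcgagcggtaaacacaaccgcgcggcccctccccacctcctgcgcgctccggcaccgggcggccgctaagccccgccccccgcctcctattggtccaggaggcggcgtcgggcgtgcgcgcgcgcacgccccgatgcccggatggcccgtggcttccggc
A half-site match was found in 9 of 24 list members with a RefSeq promoter (37.5%) and in 8.2% of 27025 genes, over 250 bases upstream on both strands. It was also found in 25% of sterol synthesis genes, 20% of two-cell-like genes and 8.33% of glycolysis and hypoxia-response genes, so it is not particular to this list.

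Sterol synthesis genes fell almost as a whole. SREBP2, encoded by Srebf2, is the transcription factor that raises cholesterol synthesis and uptake when sterols are scarce. Of 24 genes of the pathway, 23 were lower and 0 were higher in Dux-KO cells, with a median log2 fold change of -1.65, and the remaining gene, Ebp, an isomerase, was at -0.04. In Dux-Het cells 23 of 24 were lower too, against 4.34% of all entries there, with a median of -1.59. Without 1 library the count was 17 (4OHT replicate 1), 16 (4OHT replicate 2), 20 (DMSO replicate 1) or 22 (DMSO replicate 2).

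Fdps, which encodes farnesyl diphosphate synthase, stood at 24.5 and 24.2 CPM under 4OHT, against 149 and 119.6 CPM under DMSO. It fell 5.52-fold (log2 fold change -2.46, SE 0.21, edgeR adjusted p = 9.31e-05). Msmo1, a methylsterol monooxygenase, and Insig1, the anchor that holds SREBP in the endoplasmic reticulum when sterols are plentiful, fell by 2.38 and 2.13 on the log2 scale. Fdps, Msmo1 and Insig1 kept their calls without any 1 library. Hmgcs1, which makes the HMG-CoA that enters the pathway, and Srebf2, both named for their roles after their values were seen, also fell. Hmgcs1 stood at 69.4 and 62.2 CPM under 4OHT, against 204 and 243 CPM under DMSO (log2 fold change -1.76, SE 0.15, adjusted p = 7.68e-05). Srebf2 stood at 74.8 and 78.2 CPM under 4OHT, against 235 and 203 CPM under DMSO (log2 fold change -1.52, SE 0.17, adjusted p = 0.000539). The sequence upstream of Hmgcs1 (chr13:119690101-119690350, plus strand) is shown because it carries letters of both elements known from SREBP targets. Capitals mark CCAAT, here as its reverse complement ATTGG, and TCACNCCAC, a core of the sterol regulatory element.
Hmgcs1: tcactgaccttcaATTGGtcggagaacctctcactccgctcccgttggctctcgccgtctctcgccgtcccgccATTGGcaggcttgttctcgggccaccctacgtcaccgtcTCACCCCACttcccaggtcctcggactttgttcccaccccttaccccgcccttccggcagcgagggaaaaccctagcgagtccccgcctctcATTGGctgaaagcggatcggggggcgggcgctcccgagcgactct
All 16 list members with a RefSeq promoter held CCAAT within 250 bases, against 37.5% of 27025 genes. TCACNCCAC was in 1 of the 16 (6.25%), against 1.22% of genes. In two-cell-like, p53 pathway and glycolysis and hypoxia-response genes CCAAT was in 68, 50 and 41.7%. TCACNCCAC was in 4, 4.17 and 8.33% of these lists, so it is not particular to sterol synthesis genes.

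Fatty acid synthesis genes fell as well, 9 of 15 with none higher and a median of -0.77. Scd1 (chr19:44394455-44407879) and Scd2 (chr19:44293674-44306864), neighbouring genes for stearoyl-CoA desaturases, had the steepest falls of the list. Scd1 stood at 6.57 and 7.33 CPM under 4OHT, against 94.2 and 106 CPM under DMSO (14.4-fold lower, log2 fold change -3.85, SE 0.30, edgeR adjusted p = 4.76e-05). Scd2 stood at 43.2 and 44.4 CPM under 4OHT, against 482 and 474 CPM under DMSO (10.9-fold lower, adjusted p = 6.06e-06). Fasn, the fatty acid synthase, fell by 1.61 and Fads2, a desaturase of polyunsaturated fatty acids, by 1.33 on the log2 scale. Scd1, Scd2 and Fasn kept their calls without any 1 library, while Fads2 lost its call without each of them (adjusted p = 0.0905 to 0.239). Without 4OHT replicate 1, 4OHT replicate 2 or DMSO replicate 1 the count of lower members was 4, 3 or 6.

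Glycolytic enzymes and hypoxia-response genes formed the next group that fell: 20 of 26 were lower and 0 were higher, with a median of -1.15. HIF1 is the transcription factor that raises these genes when oxygen is scarce. Ldha, which turns pyruvate into lactate, stood at 173 and 181 CPM under 4OHT, against 831 and 664 CPM under DMSO (log2 fold change -2.08, SE 0.16, edgeR adjusted p = 5.02e-05). Egln3, a prolyl hydroxylase that marks HIF for decay and is itself a HIF target, stood at 5.34 and 6.72 CPM under 4OHT, against 22.9 and 29.5 CPM under DMSO (log2 fold change -2.12). Ndufa4l2, a HIF target in mitochondria, fell by 3.56 and Aldoc, an aldolase, by 2.08. Ldha, Egln3 and Ndufa4l2 kept their calls without any 1 library, and Aldoc lost its call without either 4OHT library (adjusted p = 0.0798 and 0.0753). The lower members numbered 13 without 4OHT replicate 1 and 12 without 4OHT replicate 2. Ldha is shown with its upstream stretch (chr7:46845554-46845803, plus strand) because it carries several copies of ACGTG, the core of the hypoxia response element. Capitals mark ACGTG and its reverse complement CACGT, which overlap in CACGTG.
Ldha: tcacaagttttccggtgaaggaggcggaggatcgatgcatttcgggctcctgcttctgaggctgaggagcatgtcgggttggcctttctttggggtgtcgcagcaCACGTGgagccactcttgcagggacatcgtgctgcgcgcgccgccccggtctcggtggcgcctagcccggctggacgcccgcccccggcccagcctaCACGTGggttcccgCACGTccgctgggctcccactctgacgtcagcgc
ACGTG was in 15 of 24 list members with a RefSeq promoter (62.5%), against 18.5% of 27025 genes. It was in 37.5% of p53 pathway genes, 25% of sterol synthesis genes and 8% of two-cell-like genes. Matches of this and the other motifs describe letters and show neither binding nor its absence.

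**Figure D3:**
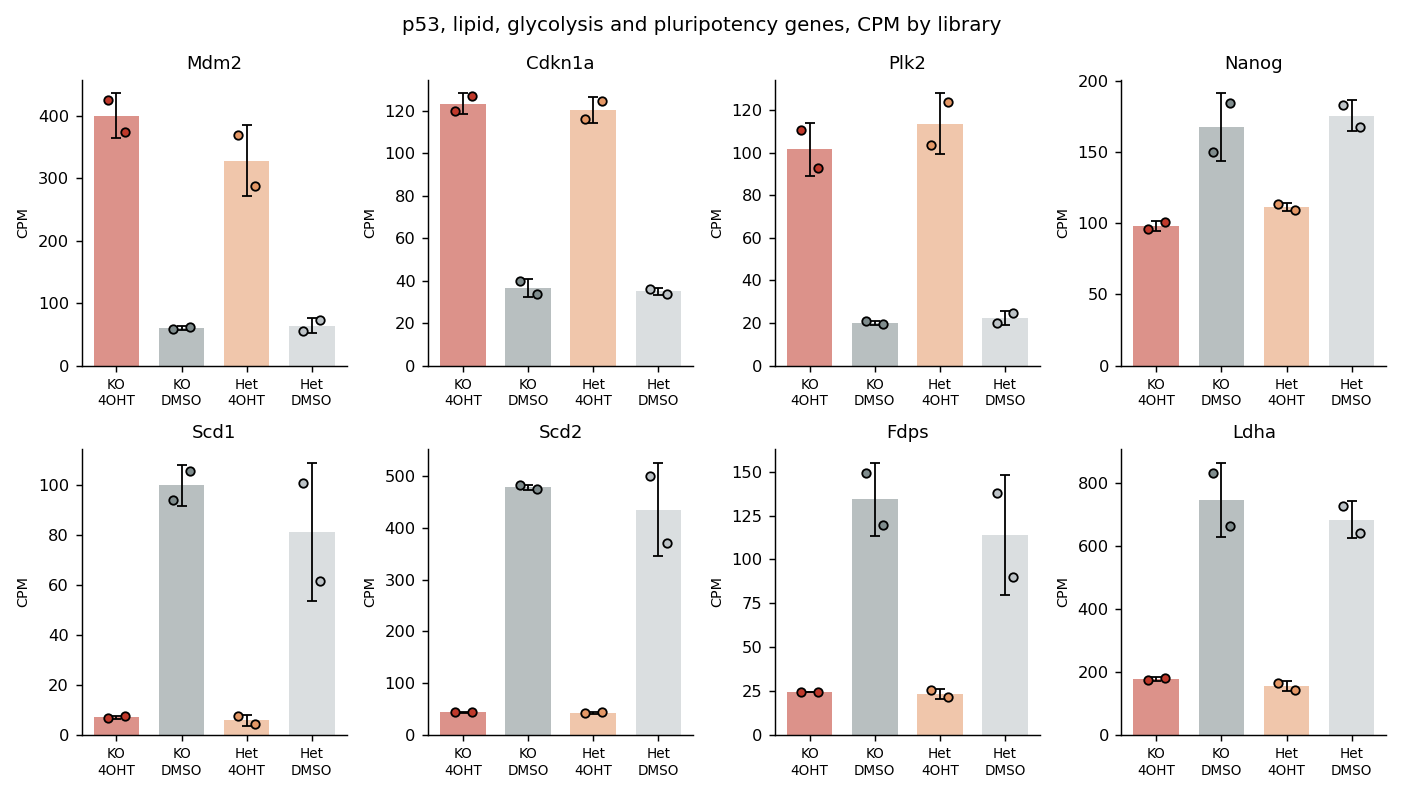
CPM (linear axes from 0) of Mdm2, Cdkn1a, Plk2, Nanog, Scd1, Scd2, Fdps and Ldha in Dux-KO and Dux-Het cells under 4OHT and DMSO; points are libraries, bars means and whiskers SD (n = 2 each). In each panel the 4OHT and DMSO libraries of a genotype do not overlap, and the direction is the same in both genotypes.

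Cell cycle genes moved less but broadly. Of 27, 16 were lower and 1 was higher, with a median of -0.61. Ccne1, the cyclin that drives entry into S phase, stood at 42.7 and 39.9 CPM under 4OHT, against 107 and 94.1 CPM under DMSO (log2 fold change -1.28, SE 0.14, edgeR adjusted p = 0.000498). Cdc6 and Cdt1, which license replication origins, fell by 1.14 and 0.87 on the log2 scale. Cdkn2b, the inhibitor p15, rose by 0.93. Ccne1 kept its call without any 1 library. Without 4OHT replicate 1, 4OHT replicate 2 or DMSO replicate 1 the count of lower members was 1, 2 or 5, and Cdkn2b was not called without any 1 of the 4 libraries (adjusted p = 0.101 to 0.198). Cdc6 lost its call without 4OHT replicate 1 or 2 (0.0658 and 0.0813), and Cdt1 also without DMSO replicate 1 (0.0887, 0.127 and 0.06).

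In a list of 21 integrated stress response and amino acid genes, 8 were lower, 2 were higher and 11 were not called, with a median of -0.23. The 2 higher members were Sesn2, which is also a p53 target, and Aldh1l2, a mitochondrial folate enzyme (log2 fold changes 0.89 and 1.03). Both were named after their values were seen. Phgdh, the first enzyme of serine synthesis, stood at 31.5 and 34.0 CPM under 4OHT, against 136 and 94.6 CPM under DMSO (log2 fold change -1.82, SE 0.18, edgeR adjusted p = 0.000273). Shmt2 and Psat1, further enzymes of serine and glycine metabolism, fell by 1.5 and 1.29, and Vldlr, a lipoprotein receptor, by 1.36. Phgdh, Shmt2 and Psat1 kept their calls without any 1 library. Vldlr lost its call without 4OHT replicate 1 or 2 (adjusted p = 0.0901 and 0.0744), and the lower count was then 4 or 3, or 5 without DMSO replicate 1. Atf4, the main transcription factor of the response, was at 0.27 on the log2 scale and was not called. Of 25 ribosome biogenesis genes 3 were lower (Nolc1, Rrp9 and Ddx21, by 0.76, 0.69 and 0.55) and 0 were higher, beside 4.36% and 5.5% of all entries. None of these 3 was called without 4OHT replicate 1, 4OHT replicate 2 or DMSO replicate 1.

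Pluripotency genes changed in a minority. Of 27, 4 were lower and 1, Dppa2, was higher, beside 4.36% and 5.5% of all entries, with a median of -0.22. Nanog, a core factor, stood at 95.8 and 100.8 CPM under 4OHT, against 150.4 and 184 CPM under DMSO (1.70-fold lower, log2 fold change -0.77, SE 0.15, edgeR adjusted p = 0.0094). Tcl1, a coactivator of AKT, fell by 1.03 and Fgf4, the growth factor, by 0.91. Zfp42, the marker REX1, fell by 0.64. Pou5f1 had a log2 fold change of -0.62 (SE 0.22, adjusted p = 0.104) and was called without DMSO replicate 2 (0.0174). Sox2, the partner of OCT4, stood at 84.4 and 92.5 CPM under 4OHT and 86.1 and 103 CPM under DMSO, and the groups overlap. Nanog, Tcl1 and Fgf4 lost their calls without 4OHT replicate 1 (adjusted p = 0.112, 0.0815 and 0.0715) or 4OHT replicate 2 (0.1, 0.0993 and 0.0758), so that 0 members were then lower, against 3 without DMSO replicate 1 and 7 without DMSO replicate 2.

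Of the lineage lists, the formative and primed epiblast genes had 1 call among 18, the neural genes 3 among 12 and the mesoderm genes 2 among 10. Over all entries 9.86% were called in either direction. Nodal, a ligand of the early epiblast, was the epiblast gene called. It rose to 71.3 and 65.1 CPM under 4OHT, against 21.9 and 17.5 CPM under DMSO (log2 fold change 1.79, SE 0.17, edgeR adjusted p = 0.000192). Neurod1, a neuronal transcription factor, stood at 14.2 and 15.6 CPM under 4OHT, against 1.25 and 2.07 CPM under DMSO (log2 fold change 3.14, SE 0.39, adjusted p = 0.00105). Nes and Hes5, the other called neural genes, fell by 1.24 and 2.73. T, the mesoderm factor brachyury, stood at 0.916 and 0.433 CPM under 4OHT, against 7.79 and 4.92 CPM under DMSO (log2 fold change -3.23, SE 0.45, adjusted p = 0.0018). Fgf8, the other called mesoderm gene, fell by 2.56. Nodal, Neurod1 and T kept their calls without any 1 library, whereas Nes, Hes5 and Fgf8 lost theirs without 4OHT replicate 1 (adjusted p = 0.144, 0.111 and 0.126), 4OHT replicate 2 (0.162, 0.271 and 0.088) or DMSO replicate 1 (0.145, 0.149 and 0.0754). Hes5 also lost its call without DMSO replicate 2 (0.0624).

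Of 18 trophectoderm genes 6 were lower and 0 were higher, with a median of -0.67. Over all entries 4.36% were lower and 5.5% higher. Keratins led: Krt8 stood at 24.1 and 20.8 CPM under 4OHT, against 74.4 and 51.4 CPM under DMSO (log2 fold change -1.49, SE 0.30, edgeR adjusted p = 0.0121), and Krt19 and Krt18 fell by 1.96 and 1.27. Tead4, a transcription factor of the lineage, fell by 1.42. None of the list was called without 4OHT replicate 1 or 2, and without DMSO replicate 1 and 2 the counts were 1 and 4. Cubn and Pdgfra, a scavenger receptor and a growth factor receptor, were higher among 19 tested primitive endoderm genes (log2 fold changes 0.95 and 1.07), and neither was called without 4OHT replicate 1, 4OHT replicate 2 or DMSO replicate 1. Cubn was not called without DMSO replicate 2 either (adjusted p = 0.0891).

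Several immediate early genes, the first transcripts to answer growth factor signals through ERK, were higher. Of 19 FGF-ERK and immediate early genes, 7 were higher and 1 was lower, with a median of 0.45. Fosb stood at 11 and 6.43 CPM under 4OHT, against 0.677 and 0.635 CPM under DMSO (log2 fold change 3.73, SE 0.31, edgeR adjusted p = 7.68e-05). Fos, its relative, stood at 12.6 and 11.7 CPM under 4OHT, against 1.96 and 2.66 CPM under DMSO (log2 fold change 2.38). Egr1, a zinc finger factor, stood at 72.0 and 102 CPM under 4OHT, against 21.8 and 20.7 CPM under DMSO (log2 fold change 2.04). Egr2 rose by 2 on the log2 scale, and the member that fell was Ier3 (-1.17), named after its value was seen. Fosb, Fos and Egr1 kept their calls without any 1 library, while Egr2 lost its call without each (adjusted p = 0.051 to 0.108). Without each of the 4 libraries in turn the higher count was 3, 3, 5 and 3, in the order 4OHT replicate 1 and 2, then DMSO replicate 1 and 2.

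**Figure D4:**
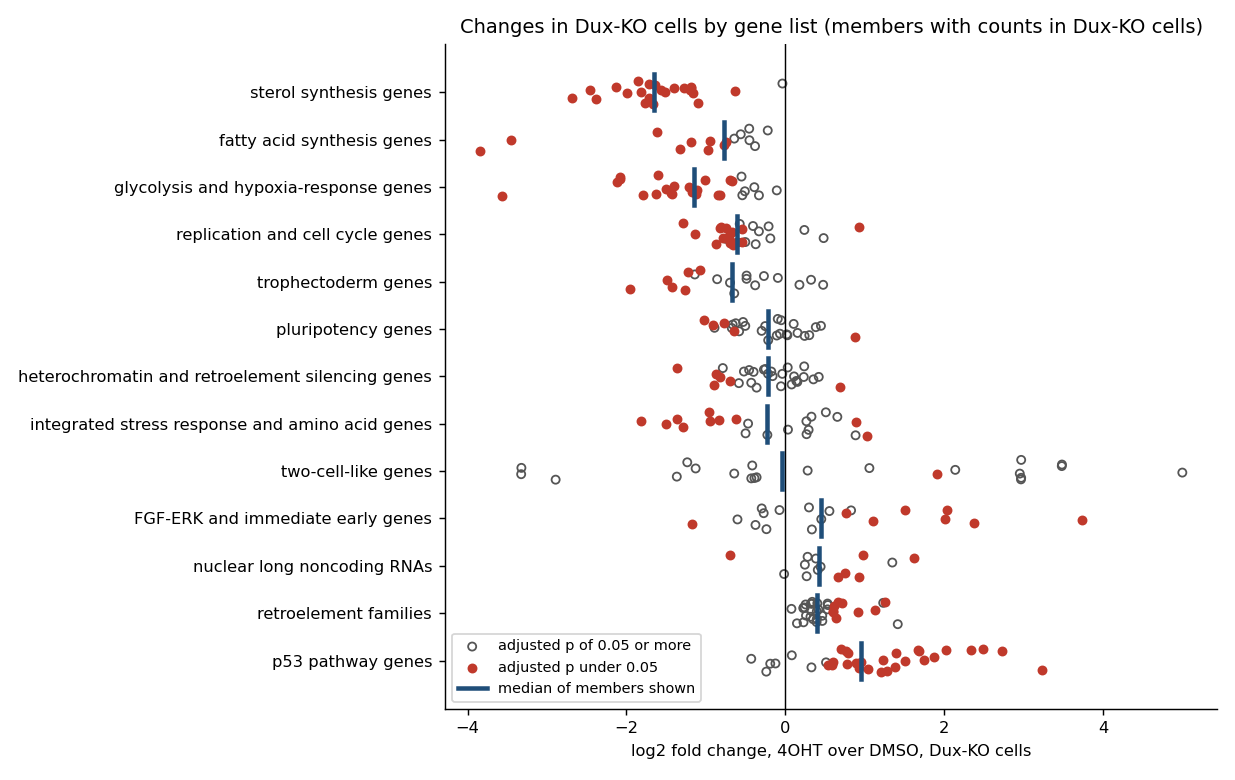
Log2 fold change, 4OHT over DMSO, in Dux-KO cells for members of 13 gene lists with counts in Dux-KO cells; each point is a gene or repeat family, filled where the edgeR adjusted p is under 0.05, and the bar is the median. Sterol synthesis genes sit to the left with 23 of 24 filled, p53 pathway genes to the right with 26 of 33 filled, and among two-cell-like genes only Zfp750 is filled.

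Of 1047 repeat families tested, 61 (5.83%) were higher under 4OHT and 0 were lower. The share higher is near the 5.5% of all entries and is not a result about repeats as a class. Without 4OHT replicate 1, 4OHT replicate 2 or DMSO replicate 1 it was 2, 0 or 1 family. All 61 had a positive log2 fold change in Dux-Het cells too, where 13 of them were called. Among 35 families of LTR retroviruses and LINE-1 elements listed by name, 9 were higher, the median was 0.40, and all 35 had a positive log2 fold change. The share of counts in repeat families, 24 and 24.41% under 4OHT against 16.39 and 20.78% under DMSO, moves with these values, and its part in them was not tested. The sources used here do not say how reads with several matches were assigned.

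ETnERV-int, an early transposon-type retrovirus, stood at 1267 and 1461 CPM under 4OHT, against 481 and 663 CPM under DMSO (log2 fold change 1.25, SE 0.24, edgeR adjusted p = 0.0106). MMERVK9C_I-int and MMERVK10C-int, retroviruses of the ERVK class, rose by 1.13 and 0.92 on the log2 scale. IAPEz-int, the internal part of the intracisternal A particle, stood at 806 and 729 CPM under 4OHT, against 436 and 498 CPM under DMSO (log2 fold change 0.72, SE 0.15, adjusted p = 0.0147). L1Md_T, a young LINE-1 family, had a log2 fold change of 0.32 (SE 0.20, adjusted p = 0.346). MMVL30-int had the steepest change of the list but rested on 1 library, at 46.3 and 152 CPM under 4OHT and 34.0 and 40.4 CPM under DMSO (adjusted p = 0.0522). Dux-Het libraries held MMVL30-int at 184 and 156 CPM under 4OHT and 217 and 146 CPM under DMSO. Without 4OHT replicate 1, 4OHT replicate 2 and DMSO replicate 1 the counts among the 35 were 1, 0 and 1, and without DMSO replicate 2 the counts were 175 of all families and 10 of the 35. ETnERV-int, MMERVK9C_I-int and IAPEz-int lost their calls in the first 3 of these (adjusted p = 0.0711 to 0.172), and MMERVK10C-int without either 4OHT library (0.0651 and 0.0539). Of 11 satellite and SINE families none was called, and the major satellite GSAT_MM stood at 55.2 and 37.1 CPM under 4OHT, against 22.1 and 19.0 CPM under DMSO (adjusted p = 0.287).

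**Figure D5:**
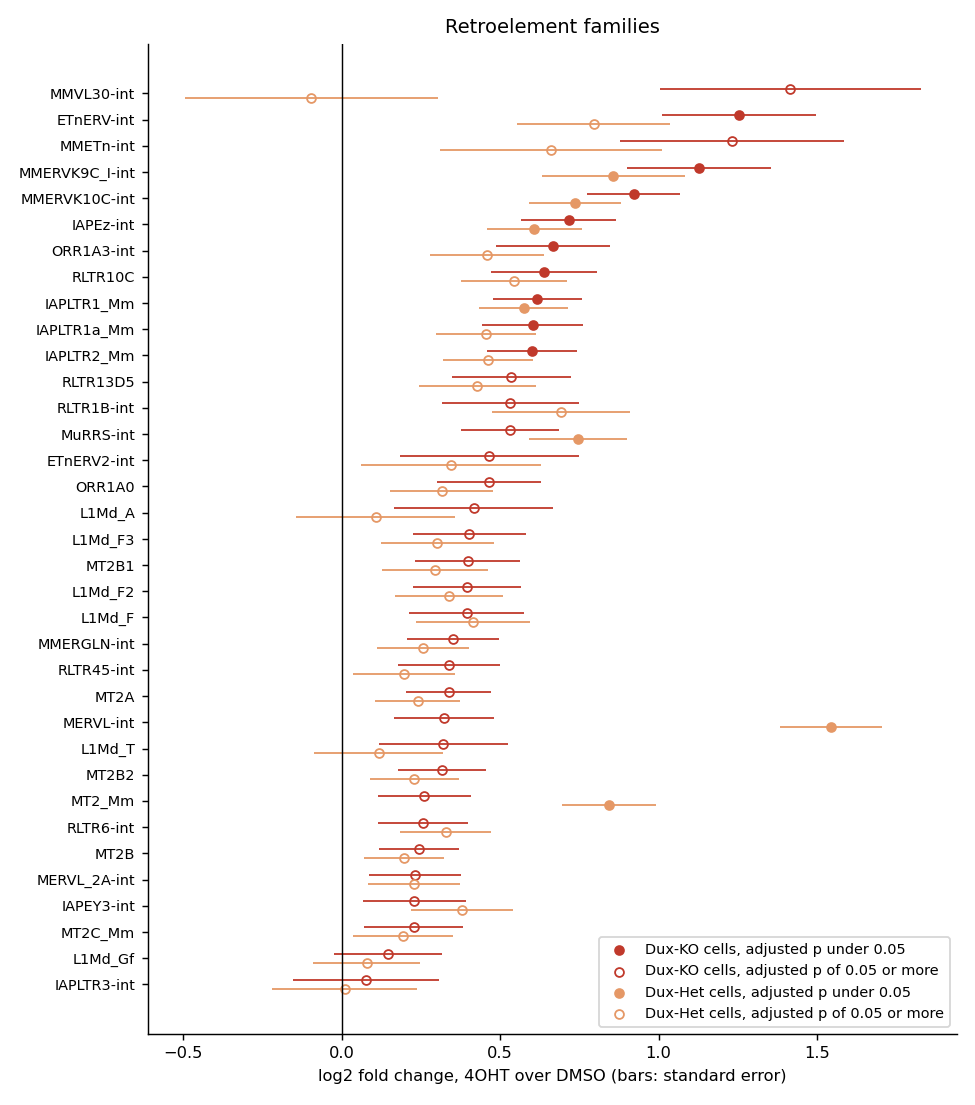
Log2 fold change, 4OHT over DMSO, of 35 retroelement families in Dux-KO and Dux-Het cells; bars are standard errors and filled points have an edgeR adjusted p under 0.05. MERVL-int and MT2_Mm stand at 0.32 and 0.26 in Dux-KO cells and at 1.54 and 0.84 in Dux-Het cells, while IAPEz-int stands at 0.72 and 0.61 and MMERVK10C-int at 0.92 and 0.74.

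Silencing factors changed in a few members: of 29 heterochromatin and retroelement silencing genes 5 were lower and 1 was higher, beside 4.36% and 5.5% of all entries. Beside Ehmt2, Chaf1b and Trim28 these were Uhrf1, a partner of the maintenance DNA methyltransferase, which fell by 0.87, and Cbx1, a heterochromatin protein, which fell by 0.82. Dnmt3l, a cofactor of DNA methyltransferases named after its value was seen, was the member that rose (0.69). Without 4OHT replicate 1, 4OHT replicate 2 or DMSO replicate 1 the lower count was 1, 1 or 3. Uhrf1 lost its call without 4OHT replicate 1 or 2 (adjusted p = 0.0621 and 0.0539), and Cbx1 in all but the fit without DMSO replicate 2 (0.145, 0.233 and 0.155).

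Among 21 writers, readers and erasers of m6A, 2 were lower and 0 were higher, beside 4.36% and 5.5% of all entries. Igf2bp2 and Igf2bp3, cytoplasmic readers that stabilise mRNA, fell by 0.84 and 0.72 on the log2 scale, and neither was called without 4OHT replicate 1, 4OHT replicate 2 or DMSO replicate 1 (edgeR adjusted p = 0.0608 to 0.175). Igf2bp2 was not called without DMSO replicate 2 either (0.0608). Mettl3, the catalytic subunit of the writer, stood at 32.6 and 33.5 CPM under 4OHT and 32.2 and 32.1 CPM under DMSO (log2 fold change 0.04, adjusted p = 0.898). None of 22 nuclear exosome, adaptor and export factors was called.

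Nuclear long noncoding RNAs were higher in 5 of 14 and lower in 1, with a median of 0.43. Neat1, the scaffold of paraspeckles, stood at 357 and 330.3 CPM under 4OHT, against 116 and 107 CPM under DMSO (log2 fold change 1.62, SE 0.17, edgeR adjusted p = 0.000295). Malat1, an abundant RNA of nuclear speckles that carries m6A, stood at 8375 and 8027 CPM under 4OHT, against 3963 and 4384 CPM under DMSO (log2 fold change 0.97, SE 0.14, adjusted p = 0.00187). Both kept their calls without any 1 library. Mirg and Rian, noncoding RNAs of the imprinted Dlk1-Dio3 region, rose by 0.93 and 0.75, and neither was called without any 1 of the 4 libraries (adjusted p = 0.0772 to 0.259). Meg3, of the same region, rose by 0.66, and Tug1 was the member that fell (-0.69), both named after their values were seen. The count of higher members was then 2 in each of the 4 fits.

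The steepest rises and falls were taken over all called entries with a mean of at least 1 CPM in the higher group. Among the 12 that led the rises, Anxa8, an annexin, stood at 28.1 and 30.0 CPM under 4OHT, against 0.948 and 1.60 CPM under DMSO (22.2-fold, edgeR adjusted p = 2.22e-05). Col20a1, a collagen, stood at 36.0 and 33.7 CPM under 4OHT, against 2.10 and 1.58 CPM under DMSO (19.2-fold, adjusted p = 6.06e-06). Wnt8a, a Wnt ligand of the primitive streak, stood at 8.03 and 6.88 CPM under 4OHT, against 0.508 and 0.348 CPM under DMSO (17.8-fold, adjusted p = 9.15e-05). Matn1, a cartilage matrix gene, rose by 4.26 on the log2 scale. The other 8, Cuzd1, Dnah3, Clca2, Casp14, Gfra3, Fam24b, Ccl1 and Dok6, were at 0.143 CPM or less in each DMSO library and at 0.831 to 2.82 CPM under 4OHT. Clca2 was called only without DMSO replicate 1 when 1 library was left out, Casp14 only without 4OHT replicate 1 and Ccl1 only without DMSO replicate 2. Dok6 lost its call without 4OHT replicate 1 or DMSO replicate 1 (adjusted p = 0.0508 and 0.0734).

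Among the 12 that led the falls, beside Scd1, Scd2, Ndufa4l2 and T, Fli1, an ETS factor of blood and vessels, stood at 0 and 0.0361 CPM under 4OHT, against 2.07 and 1.37 CPM under DMSO (edgeR adjusted p = 0.000508). Lipg, an endothelial lipase, fell by 3.43, Slfn9 by 3.01 and Fat3, a protocadherin, by 3.01 on the log2 scale. Mir5114 (-3.29) lies inside Scd2, and its counts cannot be told apart from those of Scd2. Sprr2a2, Hapln1 and Apln, at -3.83, -3.54 and -3.02, were called without 1 library only when that library was DMSO replicate 2.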

How the data were processed

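RNA cleared of ribosomal RNA by RNase H was read in pairs on an Illumina HiSeq, per the labels' protocols. Tools named in the submitters' processing notes are bcl2fastq, STAR 2.7, Bowtie2 and RSEM, with build mm10; how reads were counted, against which annotation, with or without strand and with what rule for multiple matches is not stated in the sources used here. The table of counts that the authors deposited has whole numbers for 44749 entries in 22 libraries: 43672 genes found in GENCODE vM21 and 1077 repeat families. A second deposited table holds normalized signal, the same counts over a single factor for each library (largest relative deviation 5.44e-15 over 34971 complete lines), and was used only as another scaling.

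The 8 libraries with Dux labels and 2 without one, 1 under each agent, were fitted together as 6 group means. The 2 were grouped with the 8 by the form of their titles. The fit used edgeR 4.0.16 in R 4.3.3 (filterByExpr, TMM, glmQLFit, glmQLFTest). Benjamini-Hochberg adjustment ran over all 29322 entries, with a threshold of 0.05. Each standard error is |log2 fold change| divided by the root of the F statistic. CPM values use TMM-scaled depth over the Dux libraries. The 8-library set was fitted apart. Neither that fit nor the fit of 12 libraries has a term for its 2 ESC lines, which the count-table columns do not name. The fit was tested on simulated data.

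Members and gene lists were chosen with earlier results of these data known. Named genes are the 12 steepest rises and falls among called, non-overlapping genes at 1 CPM or more, up to 4 called members of each list by size of change, and a fixed set; 1 gene this names is not reported here. Of the fold bounds, 3 counts over a group set the floor, and floors cover counting error only. Alternatives were other scalings and filters, DESeq2 1.42.0, the 4 libraries alone, a replicate block and leaving out each library. Gene positions are from GENCODE vM21, and upstream sequences are from RefSeq on GRCm38.p6.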

Additional observations from a re-analysis of the deposited data

Results flagged for a closer look

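In a fit of 12 libraries, added after the values were seen, the effect of 4OHT differed between Dux-KO cells and the study's 8-library Ythdc1-cKO set for 573 of 28678 entries (2%), 179 with a higher and 394 with a lower effect in Dux-KO cells. Of the genes and families picked by the naming rules above and reported here, 19 were among them. Differences below are the Dux-KO effect minus that of the 8-library set on the log2 scale, all with an edgeR adjusted p under 0.05. The 19 leave out genes named for their counts or after their values were seen. Of those, Sp110 is given above. Pramel7 had a difference of -6.63 (SE 1.23, edgeR adjusted p = 0.00785), but the 8-library set's own fit did not test it.

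Among the immediate early genes, the difference was 4.90 for Fosb (SE 0.37, edgeR adjusted p = 3.97e-07), 3.78 for Fos (SE 0.29, adjusted p = 3.97e-07) and 2.24 for Egr1 (SE 0.20, adjusted p = 2.09e-06). Fosb had a log2 fold change of 3.73 in Dux-KO cells, 4.92 in Dux-Het cells and -1.21 in the 8-library set. Fos had 2.38, 2.86 and -1.45, and Egr1 had 2.04, 1.44 and -0.23, where the last did not pass the test (adjusted p = 0.0684). By the form of the titles, 1 library under each agent without a Dux label was grouped with the Dux set. In that pair Fosb stood at 3.71 CPM under 4OHT and 2.31 CPM under DMSO. Fos stood at 7.54 CPM under 4OHT and 4.79 CPM under DMSO, and Egr1 at 51.6 CPM under 4OHT and 25.6 CPM under DMSO. In the 10-library fit, also added, where these lone libraries are assumed to vary like the other groups, the log2 fold changes were 0.69, 0.65 and 1.01 (adjusted p = 0.487, 0.561 and 0.351). The Dux-KO effect minus the effect in that pair was 3.04 for Fosb, 1.72 for Fos and 1.03 for Egr1 (SE 0.50, 0.53 and 0.52, adjusted p = 0.734, 1 and 1). The labels do not say whether the Dux-KO and 8-library values come from 1 experiment, and what sets them apart was not tested further.

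MERVL-int with its LTR MT2_Mm, and the major satellite GSAT_MM, had smaller effects in Dux-KO cells than in the 8-library set. The differences were -1.36, -1.23 and -2.33. MERVL-int and MT2_Mm had log2 fold changes of 1.54 and 0.84 in Dux-Het cells, against 0.32 and 0.26 in Dux-KO cells. GSAT_MM did not share this contrast, at 0.95 in Dux-Het cells and 1.17 in Dux-KO cells, against 3.47 in the 8-library set. Its Dux-Het DMSO libraries were far apart, at 7.04 and 61.2 CPM. Mdm2, Cdkn1a, Anxa8, Nodal, Malat1 and ETnERV-int, all higher under 4OHT in both, had larger effects in Dux-KO cells than in the 8-library set. The differences were 0.85, 0.63, 1.20, 0.93, 0.56 and 0.74. Their Dux-Het log2 fold changes were 2.36, 1.78, 4.69, 1.63, 0.80 and 0.80, against 2.73, 1.75, 4.47, 1.79, 0.97 and 1.25 in Dux-KO cells. T and Ehmt2 fell further in Dux-KO cells than in the 8-library set, with differences of -1.82 and -0.73. Fads2 fell less, with a difference of 1.11. In Dux-Het cells T, Ehmt2 and Fads2 had log2 fold changes of -2.79, -1.18 and -1.55, against -3.23, -1.37 and -1.33 in Dux-KO cells. Krt19, Krt8, Nes and Apln fell in Dux-KO cells and were not called in the 8-library set, with differences of -1.91, -1.55, -1.44 and -3.81. Their log2 fold changes were -1.47, -0.98, -1.13 and -1.22 in Dux-Het cells, against -1.96, -1.49, -1.24 and -3.02 in Dux-KO cells. For the entries of this paragraph edgeR called no difference between Dux-KO and Dux-Het effects, and DESeq2 called only MERVL-int. What sets the Dux libraries apart from the 8-library set was not tested.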

How the results depend on the processing

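The count of entries called in Dux-KO cells was 2890. It moved to 4701 with no filter on low counts, 4914 in the 4 libraries alone and 6801 with the replicate number as a block. Leaving out 1 library gave 423 to 2427, where fewer samples leave fewer residual degrees of freedom and a lone library is assumed to vary like the other groups. Of the 2890, 2890 were also called with the replicate block and 2707 in DESeq2. For the Dux-KO minus Dux-Het effect the count was 0, against 28 without a filter, 5 with the replicate block (among them MERVL-int) and 2 in DESeq2, and 0 to 1 without 1 library. The cause was not tested. Under the replicate block 461 repeat families were higher. Of 89 named called genes, 15 to 46 lost their call without 1 library. 5 named entries far from any call changed sign. Mettl3 was at -0.0017 with the authors' factors. Leaving out 1 library put Ythdc1 between -0.35 and 0.15, Duxf3 between -1.79 and 0.21, Trp53 between -0.312 and 0.0125 and Sox2 between -0.256 and 0.0084. The replicate numbers are not stated to pair libraries: replicate differences under 4OHT and DMSO correlated at 0.242 in Dux-KO and 0.565 in Dux-Het cells over 12547 entries, with 2 pairs each. With 2 libraries a group, small changes could not be called.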

Other observations

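Mitochondrially encoded transcripts were uneven between replicates. Their share of counts was 0.794 and 1.37% under 4OHT, against 0.324 and 1.11% under DMSO, and none of 14 tested members was called in Dux-KO cells, although all 14 had a positive log2 fold change with a median of 0.80. Without DMSO replicate 2, 7 were higher, and groups did not overlap for 1 member. Among 23 tested interferon response genes 1 was higher and 1 was lower, near the 5.5% and 4.36% of all entries, which is no result about the list. Isg20, an exonuclease, was higher (log2 fold change 1.31), and Stat2, a signal transducer of type I interferon, was lower (-0.87). Among 19 germline genes Hormad1 and Taf7l, a meiotic chromosome axis gene and a testis transcription factor subunit, were higher (1.47 and 1.59), beside 5.5% of all entries. Of these 4, Hormad1 was called without DMSO replicate 2, and none of the other 3 was called without any 1 library.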
